A study of Mus musculus with 6 samples.

Results

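Splicing and neuronal RNA-binding regulators were followed by RNA sequencing in C57BL/6 mice, in the nucleus accumbens, the ventral part of the striatum where dopamine inputs that drugs of abuse act on converge. The members were the gene records whose symbol begins with Srsf, Hnrnp, Rbfox, Celf, Mbnl, Elavl, Ptbp or Nova, 49 of the 21540 records in the authors' deposited table. Mice of the cocaine group were given 20 mg/kg cocaine by the intraperitoneal route on 7 days, and those of the saline group saline on the same schedule. Both groups carried the same strain label, no genotype or allele is named for either, and the age of the mice is not given in the sources used here. The labels place both groups 4 h into withdrawal and list 3 libraries per group, without saying whether a library is 1 animal or pooled tissue. The saline libraries carry the cocaine protocol text, so the treatment label was used to group them.

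These families set which exons of a pre-mRNA are kept and how long the mature mRNA lasts. SR proteins (Srsf) bind exons and mostly promote their inclusion, while hnRNPs (Hnrnp, with Ptbp as a relative) coat nascent transcripts and often repress splice sites. Rbfox, Nova, Celf and Mbnl proteins act in a position-dependent way on brain and muscle exons, and Elavl (Hu) proteins bind AU-rich elements and stabilise mRNAs. In neurons such factors shape the isoforms of receptors, channels and synaptic adhesion molecules, and many of them regulate their own transcripts through exons that trigger nonsense-mediated decay.

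The authors' deposited table gives 1 value per group in FPKM, fragments scaled to transcript length and library total, with a log2 fold change of cocaine over saline, a p-value and a q-value. All of those quantities below are the authors' own from that table. It holds no value per library, so no spread between replicates stands beside any value, and the depth of the libraries is unknown. Of the 49 members 45 were marked as tested, and the other 4 (Celf1, Mbnl2, Rbfox1 and Rbfox2) were marked as failed. All 15 spiny neuron markers were detected, from 27.6 to 1531 FPKM in the saline group, among them Drd1a, Drd2 and Ppp1r1b, the defining genes of striatal spiny neurons. In bulk tissue, fewer cells of a type and less RNA per cell cannot be told apart.

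After cocaine, 1 member passed the authors' test at q < 0.05. Hnrnpa0, an hnRNP that binds AU-rich elements and is a substrate of the stress-activated kinase MAPKAPK2, fell. The other 44 of the 45 tested members did not pass, and 44 of the 45 lay within 0.2 of 0 on the log2 scale, with 30 within 0.1. Over all tested records 1.23% passed in either direction and 0.709% passed and were lower, and 2.35% passed among those of at least 10 FPKM, a level that 44 of the 45 tested members reach. A count of 1 in 45 is near that background. At q < 0.1 Hnrnpa2b1 joined it, against 1.47% of all tested records.

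Most members had lower values after cocaine. Of 45 tested members, 36 had a log2 fold change below 0 and 9 above, with a median of -0.04, next to 59% below 0 and a median of -0.02 over all tested records and 60% below 0 among those of at least 10 FPKM. Counted by symbol, so without relatives under other symbols, the hnRNPs were below 0 in 16 of 18 and the SR proteins in 10 of 11. Celf genes were below 0 in 4 of 5 and Ptbp genes in 2 of 2, Elavl genes in 2 of 4, Mbnl and Nova genes in 1 of 2 each and Rbfox genes in 0 of 1. Whether the families differ was not tested. At an unadjusted deposited p under 0.05 there were 11 members, 10 lower and 1 higher. The same rule took 5.76% of all tested records and 9.28% of those of at least 10 FPKM, and in the lower direction 3.74% and 6.1%. Of the 11, 6 were hnRNPs, 2 SR proteins and 2 Celf genes, and the 1 higher member was Mbnl1.

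**Figure D1:**
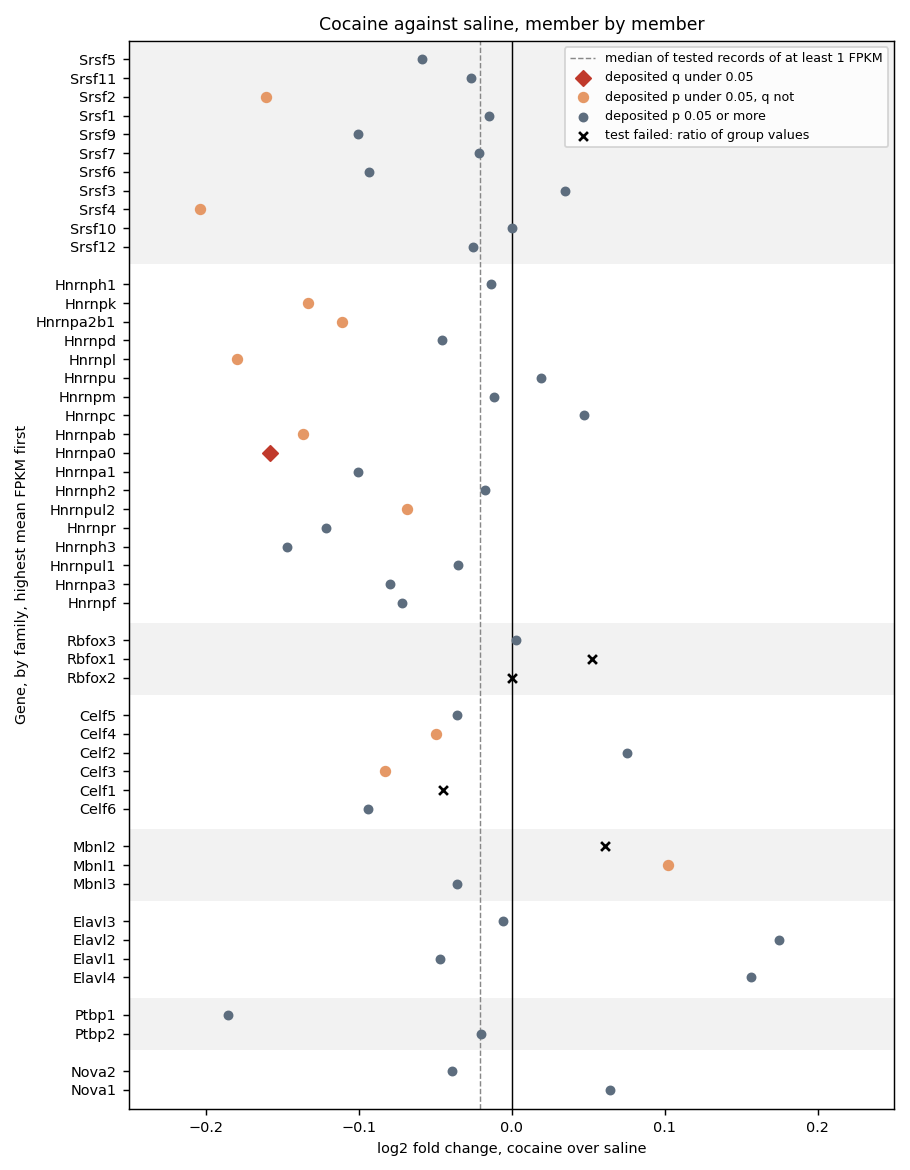
The horizontal axis is the log2 fold change of cocaine over saline in the authors' deposited table and each row is 1 gene, grouped by family. The red diamond is Hnrnpa0 at -0.16, orange points have a deposited p under 0.05 without passing q, grey points have neither, crosses are ratios of the group values of the 4 members whose test failed, and the dashed line is the median of all tested records of at least 1 FPKM (-0.02).

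The promoters of Hnrnpa0 and of the 3 other hnRNP genes that had a deposited p under 0.05 and a single listed start are shown. Srsf2, an SR gene with a single start and a deposited p of 0.0459, held 1 CCAAT box in the same window and is not shown. The promoter of Hnrnph3, next by p among members with a single start, was added after its values were seen. Its log2 fold change was -0.15 and the authors' p = 0.121, which falls outside that rule. Each run is the 250 bases before the transcription start from RefSeq (GRCm38.p6, a later build than the authors'), 5′ to 3′ on the gene's strand, with each CCAAT box, or its reverse complement ATTGG, in capitals.
Hnrnpa0, chr13:58128557-58128806, minus strand: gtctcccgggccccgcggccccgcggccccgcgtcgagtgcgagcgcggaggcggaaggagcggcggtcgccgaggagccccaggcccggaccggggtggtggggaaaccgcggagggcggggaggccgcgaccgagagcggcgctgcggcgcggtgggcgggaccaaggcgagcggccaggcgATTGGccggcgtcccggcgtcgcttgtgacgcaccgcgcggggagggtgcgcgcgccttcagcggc
Hnrnpl, chr7:28810640-28810889, plus strand: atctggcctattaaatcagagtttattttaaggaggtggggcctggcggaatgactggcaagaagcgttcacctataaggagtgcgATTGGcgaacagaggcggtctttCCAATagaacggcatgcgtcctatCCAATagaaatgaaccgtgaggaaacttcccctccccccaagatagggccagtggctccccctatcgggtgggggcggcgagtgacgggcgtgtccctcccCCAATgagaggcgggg
Hnrnpab, chr11:51606882-51607131, minus strand: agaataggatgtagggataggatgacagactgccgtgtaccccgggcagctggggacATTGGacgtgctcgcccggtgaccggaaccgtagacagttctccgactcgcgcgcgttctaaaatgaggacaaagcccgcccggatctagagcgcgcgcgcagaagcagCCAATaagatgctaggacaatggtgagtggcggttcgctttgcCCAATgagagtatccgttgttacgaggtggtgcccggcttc
Hnrnpk, chr13:58402118-58402367, minus strand: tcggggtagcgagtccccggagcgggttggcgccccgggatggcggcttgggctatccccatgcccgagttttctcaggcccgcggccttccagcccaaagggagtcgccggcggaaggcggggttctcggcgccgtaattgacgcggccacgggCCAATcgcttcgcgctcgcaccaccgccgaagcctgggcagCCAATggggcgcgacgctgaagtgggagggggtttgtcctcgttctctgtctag
Hnrnph3, chr10:63023850-63024099, minus strand: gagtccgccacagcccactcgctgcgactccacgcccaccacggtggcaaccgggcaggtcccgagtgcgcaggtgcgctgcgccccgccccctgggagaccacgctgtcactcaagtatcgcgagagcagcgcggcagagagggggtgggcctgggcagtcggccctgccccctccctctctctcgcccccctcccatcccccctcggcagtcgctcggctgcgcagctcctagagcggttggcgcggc

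The letters CCAAT occurred on either strand 1 time in the Hnrnpa0 run, 66 bases before the start, 4 times in Hnrnpl, 3 times in Hnrnpab, 2 times in Hnrnpk and 0 times in Hnrnph3. The Hnrnpa0 run is 81.2% G or C, against 56.4% in Hnrnpl, 58.4% in Hnrnpab, 69.2% in Hnrnpk and 73.6% in Hnrnph3. The median over all promoters of that table was 52.4%, and over the 83 promoters of members it was 61.6%. Among the 46 members with a RefSeq promoter, 26 (56.5%) held a CCAAT box in this window of at least 1 start, next to 37.5% of all genes in the table. Members have more starts per gene, 83 for 46 genes against 32851 for 27025, and counted per start the shares were 48.2% and 33.8%. By family the genes with a CCAAT box were 13 of 17 hnRNPs, 4 of 4 Elavl genes and 3 of 11 SR genes. In the remaining families they were 2 of 5 Celf, 2 of 3 Mbnl, 1 of 2 Rbfox, 1 of 2 Ptbp and 0 of 2 Nova genes. The cAMP response element TGACGTCA was found in 2 of the 46 (Celf3 and Celf6), which is 4.35% of genes against 1.77% and 4.82% of starts against 1.55%. The ETS letters CCGGAAGT were found in 5, which is 10.9% of genes against 3.23% and 7.23% of starts against 2.88%. The E-box CACGTG was found in 5, which is 10.9% of genes against 6.86% but 6.02% of starts in both. The TATA letters TATAAA were found in 7, which is 15.2% of genes against 14.3% and 9.64% of starts against 12.4%. Both strands were searched, none of these 5 motifs contains another, and a match describes letters, not binding. The shares over all genes include genes whether or not they are expressed in this tissue. No set of expressed genes, or of promoters alike in GC content, was set beside the members. The part of expression and GC content in these differences was not tested.

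The authors' deposited table put Hnrnpa0 at 60.2 FPKM after saline and at 53.9 FPKM after cocaine. That is 10.4% lower, a log2 fold change of -0.16 (the authors' p = 1.30e-08, q = 4.91e-06). The gene has a single annotated transcript in GENCODE release 21, and none of its 50-base windows occurs in the transcripts of another gene. By p-value it was number 20 of the 106 records that passed and were lower, whose median log2 fold change was -0.14. Markers of endothelial and mural cells had lower values in the same group in 14 of 14 tested, 1 of them past q, with a summed level of 95.3 FPKM after saline and 81.2 FPKM after cocaine and none at 0. The part of those cells in the Hnrnpa0 value was not tested.

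Among the other A/B-type hnRNPs, which share tandem RNA-recognition motifs with Hnrnpa0, every value was lower after cocaine without passing. Hnrnpa2b1, a carrier of mRNAs into dendrites and oligodendrocyte processes, was at 167 and 154 FPKM (log2 fold change -0.11, the authors' p = 0.000968, q = 0.0842). Hnrnpab, a relative that also takes part in mRNA transport, was at 66.5 and 60.5 FPKM (-0.14, the authors' p = 0.00772, q = 0.390). Hnrnpa1, the family's best-studied splicing repressor, was at 52.7 and 49.2 FPKM (the authors' p = 0.185), and Hnrnpa3 at 27.9 and 26.4 FPKM (the authors' p = 0.234). Hnrnpa1 shares 46.4% of its 50-base windows with other annotated genes, Hnrnpab 29.0% and Hnrnpa3 28.2%, so reads could be divided between copies or overlapping genes and these values are uncertain. For Hnrnpa2b1 that share was 2.44%.

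Hnrnpk, a poly(C)-binding protein, was at 224 FPKM after saline and 204 FPKM after cocaine in the authors' deposited table (log2 fold change -0.13, p = 0.0105, q = 0.479). Hnrnpl, which binds CA repeats, was at 143 and 127 FPKM. Its log2 fold change of -0.18 was the lowest of the family and larger in size than that of Hnrnpa0, yet its deposited p was 0.00198 and its q 0.144. Hnrnpul2, a relative of Hnrnpu, was at 44.0 and 41.9 FPKM (-0.07, the authors' p = 0.00123, q = 0.102). These 3 genes were on the lower side with Hnrnpa0 but did not pass. Of Hnrnpk windows 37.8% occur in other genes, mostly Gm7964, a predicted gene, which makes its level uncertain.

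The G-tract-binding hnRNPs F and H included the most abundant member of all. Hnrnph1 stood at 760 and 753 FPKM (the authors' p = 0.920), 3.39 times the level of Hnrnpk after saline and 3.68 times after cocaine. It made up 35.8% of the summed FPKM of the hnRNP family after saline and 36.9% after cocaine. Its relatives were lower in level, with Hnrnph2 at 51.0 and 50.4 FPKM, Hnrnph3 at 40.2 and 36.3 FPKM (the authors' p = 0.121) and Hnrnpf at 12.9 and 12.3 FPKM. Hnrnpf, the least abundant hnRNP, shares 67.3% of its windows with other genes, and Hnrnph2 shares 18.2%.

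Hnrnpc, which binds uridine tracts, and Hnrnpu, a nuclear scaffold protein, were the only hnRNPs among the members above 0 in the authors' deposited table. Hnrnpc was at 63.7 and 65.8 FPKM (log2 fold change 0.05, the authors' p = 0.359) and Hnrnpu at 115 and 116 FPKM (0.02, p = 0.648). Hnrnpu moved to -0.05 when the trend of fold changes with GC content and transcript length was removed, so Hnrnpc alone kept its side among these 2. Of the Hnrnpc windows 12.3% occur in other genes. The remaining hnRNPs lay between -0.01 and -0.12. They were Hnrnpd, which controls decay of AU-rich mRNAs (154 and 149 FPKM), Hnrnpm (66.8 and 66.3 FPKM), Hnrnpr (43.7 and 40.2 FPKM) and Hnrnpul1 (31.4 and 30.7 FPKM). Hnrnpm shares 28.8% of its windows with other genes.

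**Figure D2:**
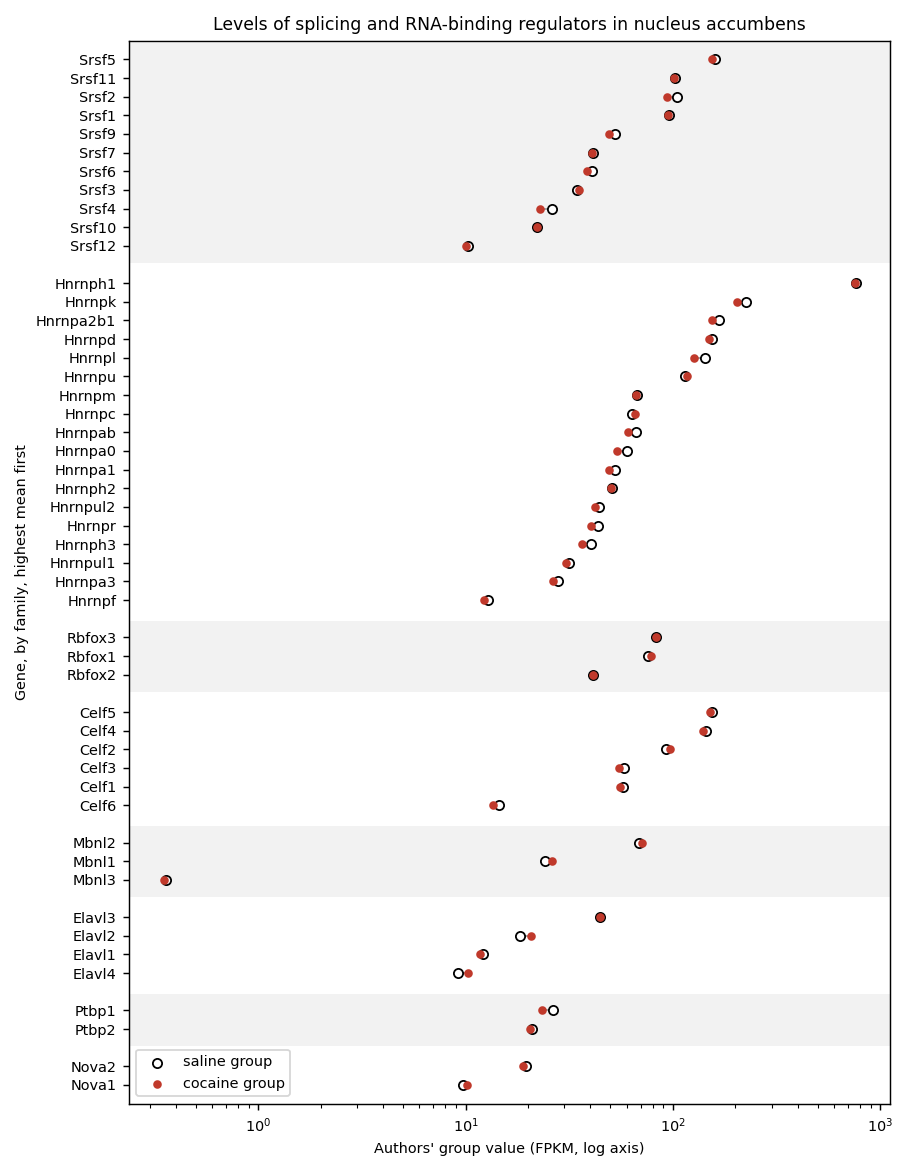
The horizontal axis is the authors' group value in FPKM on a log axis, with 1 gene per row ordered by mean level within its family. Open circles are the saline group and red points the cocaine group, and the gaps between them are small beside the span from Mbnl3 (0.359 FPKM after saline) to Hnrnph1 (760 FPKM).

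All 11 SR genes were tested and none passed, against 1.23% of all tested records, and 10 had lower values after cocaine with a family median of -0.03. Srsf4 had the lowest log2 fold change of any member, -0.20, with 26.2 and 22.8 FPKM (the authors' p = 0.0160, q = 0.637). Of its windows 65.4% occur in the predicted gene Gm12992, so this value is uncertain. Srsf2 (SC35), a marker of nuclear speckles that has an RS domain like all SR proteins, was at 105 and 93.7 FPKM (-0.16, the authors' p = 0.0459, q close to 1), and 35.2% of its windows occur in other genes, mostly Mettl23. Both were on the lower side, and neither is free of a copy or an overlapping gene.

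The most abundant SR gene was Srsf5, at 160 and 154 FPKM (the authors' p = 0.272), with 27.8% of its windows in other genes. Srsf1, the founding member of the family, was at 95.9 and 94.9 FPKM (the authors' p = 0.855). Srsf11, which takes part in the inclusion of neuronal microexons, was at 103 and 101 FPKM (the authors' p = 0.742). These abundant genes had nearly the same values in both groups.

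Srsf3, the smallest SR protein and an adaptor for mRNA export, was the only SR gene among the members above 0. It was at 34.3 and 35.2 FPKM (log2 fold change 0.03, the authors' p = 0.653). Of its windows 31.5% occur in other genes, so this value is uncertain. Srsf6 (40.9 and 38.4 FPKM) and Srsf9 (52.7 and 49.1 FPKM) lay at -0.09 and -0.10 in the authors' deposited table, while Srsf7, also an export adaptor, was at 41.3 and 40.7 FPKM. Srsf10 and Srsf12, SR-related proteins that can act as repressors, were at 22.1 FPKM in both groups and at 10.2 and 10.1 FPKM. The deposited p-values of these 5 genes lay between 0.271 for Srsf6 and 0.999 for Srsf10. In GENCODE release 21, 9 of the 11 SR genes have an annotated transcript marked for nonsense-mediated decay, as do 22 of the 49 members. The counts were 2 of 2 for Ptbp genes, 8 of 18 for hnRNPs, 3 of 6 for Celf genes and none for Rbfox, Mbnl, Elavl and Nova genes. The share over all genes was not counted. The gene values of the authors' table do not separate such transcripts from coding ones.

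**Figure D3:**
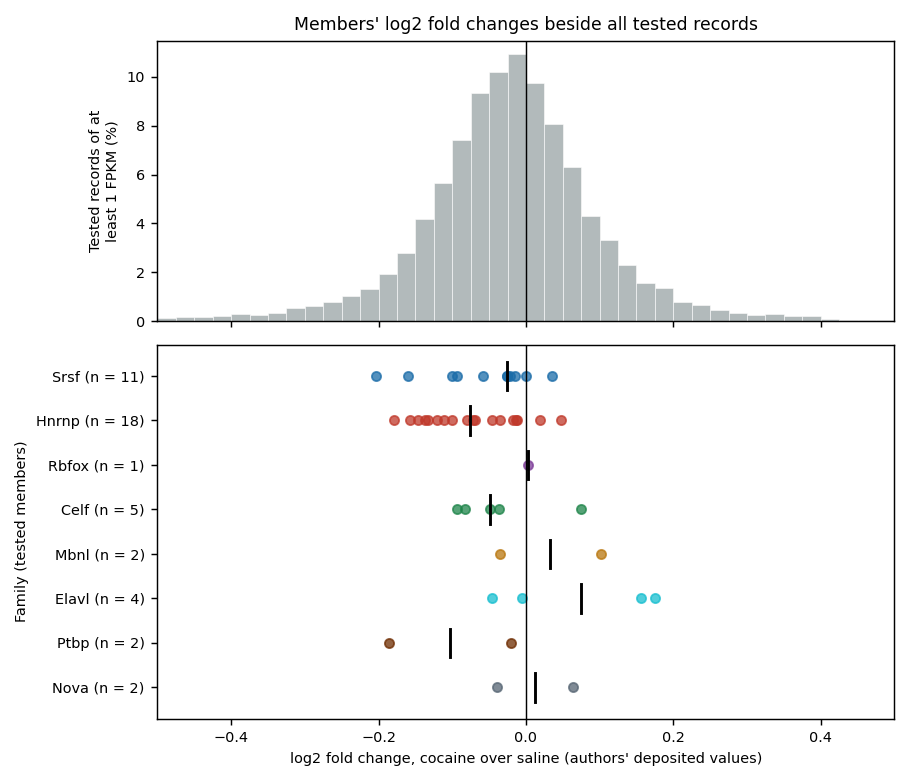
The upper panel gives the share of all tested records of at least 1 FPKM in each step of the log2 fold change, and the lower panel gives every tested member as a point in its family's row with a bar at the family median. The hnRNP row, with a median of -0.08, lies left of 0 apart from Hnrnpc and Hnrnpu, while the Elavl row reaches 0.17.

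Ptbp1 and Ptbp2 are the members from the polypyrimidine tract-binding family. Rod1, a relative listed under another symbol, was at 4.53 and 4.91 FPKM (log2 fold change 0.12, the authors' p = 0.700). Ptbp1 represses neuronal exons and is mostly made by cells other than neurons, and Ptbp2 takes its place in neurons. Ptbp1 was at 26.6 FPKM after saline and 23.4 FPKM after cocaine, a log2 fold change of -0.19 (the authors' p = 0.330), and Ptbp2 was at 20.8 and 20.5 FPKM (-0.02, the authors' p = 0.642). The ratio of Ptbp1 to Ptbp2 was 1.28 after saline and 1.14 after cocaine, with no spread to set it against. The fold of Ptbp1 was larger in size than that of Hnrnpa0 but its p was not small. Ptbp1 has 16 annotated transcripts and shares 22.6% of its windows with other genes, where Hnrnpa0 has 1 transcript and shares none, and the part of these in the p-values was not tested.

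Rbfox proteins bind the RNA letters UGCAUG near neuronal exons, and Rbfox3 is the antigen NeuN used to mark neurons. Rbfox3 was at 82.4 and 82.6 FPKM (log2 fold change 0.00, the authors' p = 0.954). For Rbfox1 and Rbfox2 the test failed, and the group values were 75.9 and 78.7 FPKM for Rbfox1 and 41.2 FPKM in both groups for Rbfox2. The table lists a log2 fold change of 0 for failed records, which the group values of Rbfox1 do not give (0.05). The level of Rbfox3 was 2.0 times that of Rbfox2 in both groups.

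Nova proteins control synaptic exons and are largely confined to neurons. Nova2, the form most abundant in forebrain cortex, was at 19.6 and 19.0 FPKM (the authors' p = 0.401) and Nova1 at 9.77 and 10.2 FPKM (the authors' p = 0.130). The Nova1 share of the summed FPKM of both was 33.3% after saline and 34.9% after cocaine. Neither passed, and their log2 fold changes of -0.04 and 0.06 had opposite signs. Of the Nova2 windows, 30.8% occur in other annotated genes.

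Celf proteins bind GU-rich sequences, and Celf3 to Celf6 are expressed mainly in the nervous system. Celf5 was the most abundant, at 155 and 151 FPKM (the authors' p = 0.587). Celf4, which binds mRNAs of synaptic proteins, was at 145 and 140 FPKM (log2 fold change -0.05, the authors' p = 0.0186, q = 0.697), and Celf3 at 58.3 and 55.0 FPKM (-0.08, p = 0.00167, q = 0.126). Both were lower after cocaine without passing. Without the trend in GC and length Celf3 was at -0.02 and Celf4 at -0.03. After centring on the median of all records of at least 1 FPKM they were at -0.06 and -0.03. Celf2, which is broadly expressed, was at 92.1 and 97.0 FPKM (0.08, the authors' p = 0.226) and was the only tested Celf gene above 0. Celf6 was at 14.6 and 13.6 FPKM (the authors' p = 0.625), and Celf1, whose test failed, at 57.5 and 55.7 FPKM.

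Mbnl proteins, which are trapped by the repeat RNA of myotonic dystrophy, act on many of the same exons as Celf proteins, often in the opposite direction. Mbnl1 was at 24.2 FPKM after saline and 25.99 FPKM after cocaine in the authors' deposited table (log2 fold change 0.10, p = 0.0486, q close to 1). It was the only member above 0 with an unadjusted p under 0.05, against 2.02% of all tested records, and its value was 0.06 once the trend with GC and length was taken out. Mbnl2, the main Mbnl protein of brain, had a failed test and group values of 68.2 and 71.2 FPKM, also higher after cocaine. Mbnl2 stood at 2.82 times the level of Mbnl1 after saline and 2.74 times after cocaine. Mbnl3, which is mostly made outside the adult brain, was at 0.359 and 0.351 FPKM and was the only member under 1 FPKM.

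Elavl2, Elavl3 and Elavl4 are the neuronal Hu proteins, and Elavl1 (HuR) is made in all cells. Elavl2 had the highest log2 fold change of all members, 0.17, at 18.3 and 20.7 FPKM, and Elavl4 followed with 0.16, at 9.19 and 10.2 FPKM. Neither passed, with deposited p-values of 0.367 and 0.488. Elavl3, the most abundant, was at 44.5 and 44.3 FPKM (the authors' p = 0.793) and Elavl1 at 12.1 and 11.7 FPKM (the authors' p = 0.259). Elavl3 held 52.9% of the family's summed FPKM after saline and 51.0% after cocaine, and Elavl2 held 21.8% and 23.8%. Without the trend in GC and length Elavl2 was at 0.13 and Elavl4 at 0.11.

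**Figure D4:**
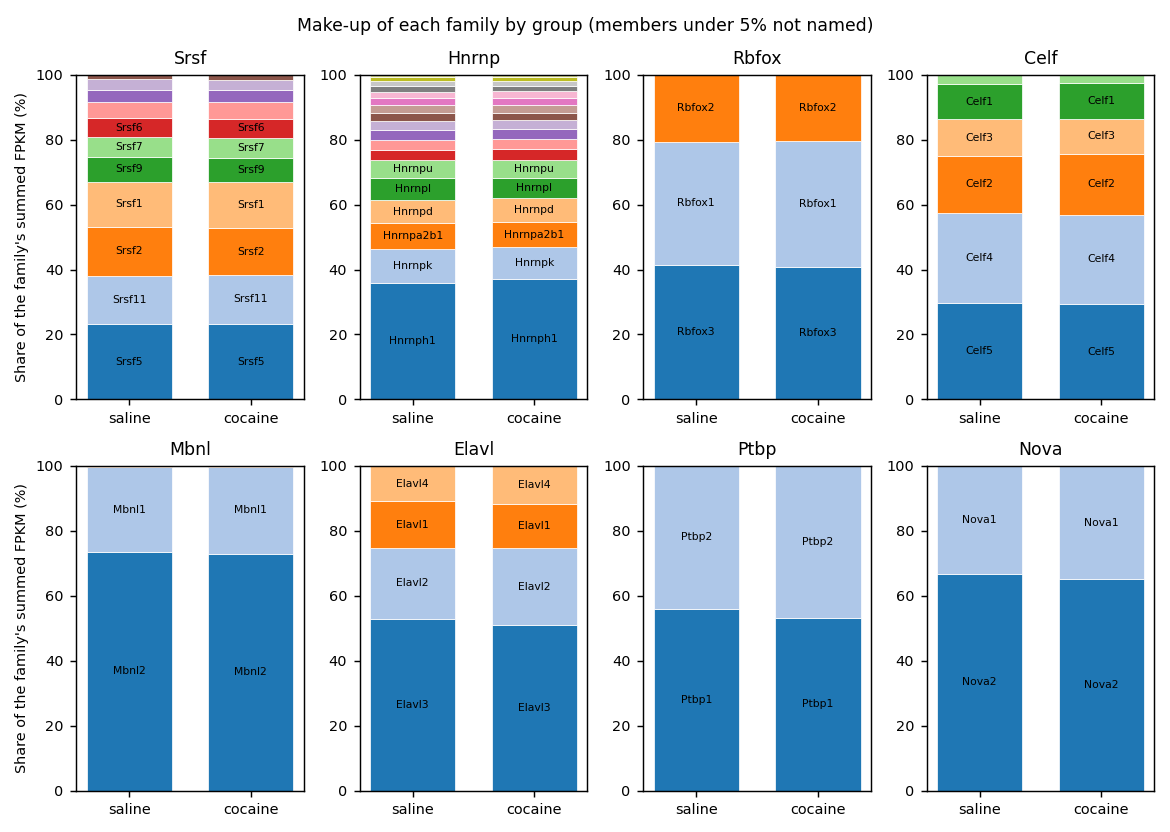
Each panel is 1 family, with the share of its summed FPKM in percent on the vertical axis and a stacked bar for each group. The bars of the 2 groups are nearly alike, and among families of at most 4 genes the visible step is Ptbp1, from 56.1% after saline to 53.2% after cocaine.

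Summed over members, levels differed little between the groups, and no library spread stands behind these sums. The hnRNP family summed to 2123 FPKM after saline and 2037 after cocaine, the SR family to 691 and 661, the Celf family to 522 and 512 and the Rbfox family to 200 and 203. The Mbnl, Elavl, Ptbp and Nova families each summed to under 100 FPKM, with Mbnl at 92.8 and 97.5, Elavl at 84.1 and 86.9, Ptbp at 47.4 and 43.9 and Nova at 29.3 in both groups. Ranked by level, 29 of the 49 members had the same place in both groups and no member moved by more than 3 places.

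The 14 members listed as neuron-enriched (Rbfox1 to Rbfox3, Nova1, Nova2, Elavl2 to Elavl4, Celf2 to Celf6 and Ptbp2) were read beside the rest. Of 12 tested, 7 were below 0 and 5 above, with a median of -0.01 that turned positive after centring (0.0080), trend removal (0.0018) and rescaling without mitochondrially encoded records (0.0090). Celf2 in this list is broadly expressed, and without it 7 of 11 were below 0 with a median of -0.02. Of the 33 other tested members 29 were below 0, with a median of -0.06. Whether these sets differ was not tested. The 9 neuronal markers found, such as Snap25 and Syt1, had 5 below 0 and a median of -0.0022, with a summed level of 2590 FPKM after saline and 2556 FPKM after cocaine. The spiny neuron markers were below 0 in 12 of 15, with a median of -0.02 that was -0.0025 after centring and 0.0087 with the trend removed. Of them 0 passed q and 4 had an unadjusted p under 0.05, all 4 lower. That is 26.7%, against 9.28% of tested records of at least 10 FPKM. By the same rule neuronal markers had 2 higher and 2 lower (44.4%), astrocyte markers 2 and 1 (30%), oligodendrocyte markers 2 and 0 (20%) and microglial markers 0. Endothelial and mural markers had 0 higher and 3 lower (21.4%), red blood cell transcripts 0 and 2 (40%) and choroid plexus markers 1 and 0 (14.3%). The share over all tested records was 5.76%. The spiny neuron markers summed to 4267 FPKM after saline and 4168 FPKM after cocaine. Astrocyte, oligodendrocyte and microglial markers had medians of 0.03, -0.03 and 0.06, and summed levels of 1528 and 1599 FPKM, 2995 and 3029 FPKM and 202 and 207 FPKM. Choroid plexus markers summed to 9.61 and 19.98 FPKM, with 1 of 7 tested (Ttr, 0.668 and 10.8 FPKM) past q and higher. Of the 7, 5 were above 0 and 2 below, Clic6 (6.42 and 5.65 FPKM) and Kl (1.46 and 1.42 FPKM). Their median level was 0.426 FPKM, so most were near the floor. Red blood cell transcripts summed to 301 and 261 FPKM, with 1 of 5 (Hba-a2) past q and lower. No marker was at 0 in either group, and the part of any of these cells in the members' values was not tested.

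Fold changes followed GC content in these members as in other genes. Over the 45 tested members Spearman's rho of the log2 fold change was -0.53 with the GC content of the longest coding transcript and 0.47 with its length, as a description, since all values come from the same libraries. Over 12634 genes of at least 1 FPKM the values were -0.30 and 0.18. Elavl2 (38.5% GC), Elavl4 (38.9%) and Mbnl1 (39.7%) stood at the GC-poor end with values above 0, and Srsf4 (56.8%) and Hnrnpa0 (55.4%) at the GC-rich end with values below 0. Exceptions included Rbfox3, the GC-richest tested member (58.6%), at 0.00 (0.06 with the trend removed). Others, GC-poor with values below 0, included Hnrnpa3 (39.9%, -0.08), Mbnl3 (39.8%, -0.04) and Hnrnpr (41.0%, -0.12). So did Hnrnpk (42.9%, -0.13), Hnrnpa2b1 (43.9%, -0.11) and Hnrnph3 (44.1%, -0.15). Tested members had a median GC content of 44.9%, against 50.3% over all tested records. In the lowest of 10 GC steps of genes of at least 1 FPKM the median log2 fold change was 0.04. Removing the trend left Hnrnpa0 at -0.11 and the hnRNP median at -0.10, against -0.08 as deposited, and 16 of 18 hnRNPs below 0. Over the 44 members with such a value 34 (77.3%) were below 0, next to 49.8% of all genes. After centring on the median of all records of at least 1 FPKM, 29 of 45 were below 0, next to 50% of the records by construction.

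**Figure D5:**
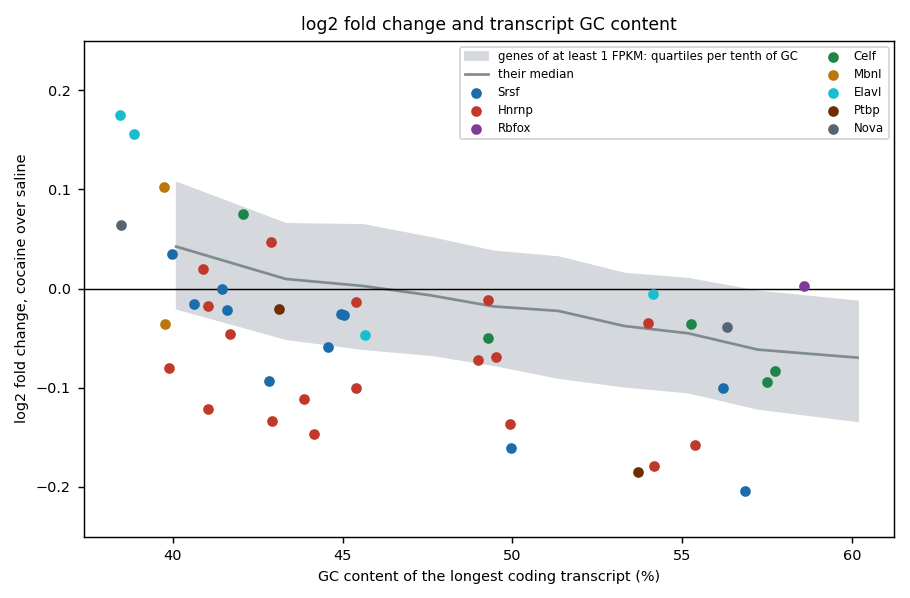
The horizontal axis is the GC content in percent of each gene's longest coding transcript and the vertical axis the log2 fold change of cocaine over saline. Points are tested members coloured by family, the grey line is the median of all genes of at least 1 FPKM in 10 steps of GC content and the band spans their quartiles, and several hnRNP points (red) lie below the band.

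The other genes of RNA splicing were read from lists made by role. Of 43 core spliceosome and snRNP genes 2 passed the authors' test, both lower, and 41 did not. Over all tested records 1.23% passed, and among those of at least 10 FPKM 2.35%. The median level of this list was 28.5 FPKM, and its lowest saline value was 5.01 FPKM. Sf3b2, a subunit of the branch-site complex of the U2 snRNP, went from 62.3 to 58.0 FPKM (log2 fold change -0.10, q = 0.00221). U2af2, which recognises the polypyrimidine tract ahead of the 3′ splice site, went from 85.3 to 78.6 FPKM (-0.12, q = 0.0196). Without the trend in GC and length they were at -0.05 each. In this list 35 of 43 genes (81.4%) were below 0, next to 59% of all tested records, with a median of -0.06 that was -0.03 after centring or without the trend in GC and length.

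SR protein kinases and SR-related coactivators, 26 tested, gave 0 calls by the authors' deposited q and 2 genes at an unadjusted p under 0.05, both higher. That is 7.69% of the list, near the 5.76% of all tested records and 9.28% of those of at least 10 FPKM. The 2 genes were Srrm2, a scaffold of nuclear speckles (57.0 and 59.9 FPKM, the authors' p = 0.00352), and Bclaf1 (22.7 and 24.5 FPKM, the authors' p = 0.00794). The list median was 0.00 and 12 of 26 were below 0. Another 33 alternative splicing regulators gave 0 calls, with 2 higher and 2 lower genes when p was left unadjusted (under 0.05) and a median of 0.02. Those genes were 12.1% of the list, against the same 5.76% and 9.28%. Sfpq, a paraspeckle protein that sustains long neuronal transcripts, was at 92.8 and 104 FPKM (the authors' p = 0.00628, q = 0.336), and Zfp326 at 18.1 and 14.9 FPKM (the authors' p = 0.0271). Relatives listed under other symbols, 6 found of which 5 were tested, gave 0 calls and 0 genes at an unadjusted p under 0.05. Of the 5, 4 were above 0 (Syncrip, Hnrpll, Rod1 and Sfrs18) and 1 below (Raly), with a median of 0.02, unlike most members. Hnrpdl, the relative whose test failed, was at 80.3 and 77.1 FPKM.

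Failed tests were more frequent among the members than in the table, 4 of 49 (8.16%) against 217 of 21540 records (1.01%) and 144 of 7220 records of at least 10 FPKM (1.99%). The 4 failed members have 8 to 15 annotated transcripts each, and the tested members 1 to 34. What the authors' test would have given for Celf1, Mbnl2, Rbfox1 and Rbfox2 is unknown.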

How the data were processed

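RNA libraries of nucleus accumbens, 3 per group, were grouped by the treatment label. TopHat2 2.0.6, Cufflinks 2.0.2 and genome build NCBIM37 are named in the submitters' processing notes, without settings, annotation or strand. The authors deposited 1 table; it is laid out like Cuffdiff output, so the group values deposited were read as FPKM, though the file does not name the unit. The p-value and q-value were deposited by the authors and copied. Log2 fold changes were the authors', and for tested records they differed by at most 1.28e-05 from log2 ratios of both group values. The test per library planned for the case of library values could not be run. Depth is unknown, so no counting interval was computed.

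A record was called at the deposited q < 0.05. Where a listed symbol had several records, that with the highest mean FPKM was used. The members, the lists of other genes and the marker lists were chosen with earlier results of these data known. All 49 members could be named, with full values for those past q, those with p under 0.05, the most abundant of each family and a fixed set of well-known ones; of the other lists, called genes or the few with the smallest p. Length and GC content were those of the longest coding transcript in GENCODE mouse release 21, matched by gene identifier (49 of 49 members, 97.4% of genes of at least 1 FPKM), and their trend was taken out as the median in each of 10 GC by 10 length cells. Windows of 50 bases of that transcript were looked up, on both strands, in all other genes' transcripts. Of the 49 members 16 shared over 10% of their windows, and the values of those 16 are uncertain. Promoters came from RefSeq (GRCm38.p6), matched by symbol for 46 of 49 members. Python 3.11.15, pandas 2.3.3 and scipy 1.17.1 were used, and the adjustment and trend removal were tested on simulated data. Alternatives were pseudocounts of 1 and 0.1 FPKM, minimums of 1 and 5 FPKM, centring, trend removal, rescaling without mitochondrially encoded records and recomputed adjustments.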

Additional observations from a re-analysis of the deposited data

How the results depend on the processing

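The table holds no values per library, so leaving out replicates could not be run. No paired analysis was possible because the deposited columns are group values that carry no replicate number. Hnrnpa0 passed under every adjustment and minimum tried (adjusted p 4.91e-06 as deposited). At q < 0.1 the count of members went from 1 to 2, the second being Hnrnpa2b1, against 1.47% of all tested records. The 5 lists of other RNA genes kept their counts of calls.

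Without replicates a value was taken as moved when it changed sign or by over 1.5 times, and the changes are small in size. Centring added 0.02 to each log2 value, giving medians of -0.018 for all members, -0.0053 for Srsf, 0.024 for Rbfox, -0.028 for Celf, 0.054 for Mbnl, 0.034 for Nova, 0.0080 for the neuron-enriched and -0.038 for the other members. Rescaling without mitochondrially encoded records, which raises each value by 0.02, gave -0.017, -0.0044, 0.025, -0.027, 0.055, 0.035, 0.0090 and -0.037 in the same order, and log2 ratios of the summed levels of -0.042 for Srsf, -0.038 for Hnrnp, 0.043 for Rbfox, -0.0052 for Celf and 0.018 for Nova, the last against -0.0038 as deposited. Removing the GC and length trend gave 0.065 for Rbfox, -0.017 for Celf, 0.060 for Mbnl, -0.00088 for Nova and 0.0018 for the neuron-enriched members, so the median of the last changed sign under all 3 settings and that of Nova under trend removal. Leaving out Celf2, chosen after seeing the data, gave -0.020 for the neuron-enriched members. Without Mbnl3, at a minimum of 1 or 5 FPKM, the Mbnl value was 0.10. The medians of Hnrnp, Elavl and Ptbp stayed within 1.5 times under all settings run.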

Other observations

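Regulators of neuronal mRNA transport, stability and translation, which act on the mature transcripts that the splicing factors produce, gave 0 calls among 35 tested by the authors' deposited q. At an unadjusted p under 0.05 there were 1 higher gene and 0 lower. That is 2.86% of the list, below the 5.76% of all tested records and 9.28% of those of at least 10 FPKM. The list median was 0.02 with 17 of 35 below 0. Pura, which binds purine-rich sequences and travels with mRNA in dendrites, was the 1 higher gene, at 17.3 FPKM after saline and 18.1 FPKM after cocaine (log2 fold change 0.07, the authors' p = 0.00192, q = 0.142). The summed level of the list was 1189 FPKM after saline and 1184 FPKM after cocaine.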
